A study of Drosophila melanogaster with 9 samples.

Results

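The neurotransmitter identity genes are a set of 10 genes whose products make, package or take back a transmitter and so mark classes of mature neurons: *VGlut*, *VAChT*, *Gad1*, *VGAT*, *ple*, *Trh*, *SerT*, *DAT*, *Vmat* and *Tdc2*. They were chosen by name as rows of the deposited count table, by a rule that uses no measured value, though with earlier results of these data known. All 10 were found among its 14560 genes. Every one was among the 10799 genes that passed the filter on low counts. The match was by exact spelling, because *Trh* (tryptophan hydroxylase, now named Trhn) and *trh* (a transcription factor of the trachea) are separate rows, as are *DAT* (the dopamine transporter) and Dat (an acetyltransferase, now named speck). The libraries came from whole brains of *brat*-null larvae (brat11/Df(2L)Exel8040), pooled within each sample, with 3 libraries of poly-A RNA for each of 3 time points. The labels name the cells as neural stem cells, but the brains also hold neurons and glia. All groups carried *UAS-insb* driven by *Wor-Gal4*, a driver of neuroblasts, and *2xTub-Gal80ts*, which blocks Gal4 at 25 °C and releases it at 33 °C. The paper's results describe the driver as *Wor-Gal4* combined with *AseGal80*, active only in type II neuroblasts, the stem cells described below. Its methods for these samples list no *AseGal80*. The 0 hr group stayed at 25 °C for 5 days, and the 9 hr and 18 hr groups spent the last 9 or 18 hr of larval growth at 33 °C, so that the duration of Insb overexpression and the time in the heat cannot be told apart.

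Neurons in the fly release a small set of classical transmitters, and the enzyme or vesicle transporter that a neuron expresses identifies the class it belongs to. Glutamate is packaged by VGlut and is the transmitter of fly motor neurons, acetylcholine is packaged by VAChT and is the main excitatory transmitter of the fly central nervous system, and GABA, the main inhibitory transmitter, is made by Gad1 and packaged by VGAT. The monoamines dopamine, serotonin, tyramine and octopamine are made by few cells per brain through ple, Trh and Tdc2, and are packaged by Vmat. Dopamine is taken back up by DAT and serotonin by SerT. A type II neuroblast, the stem cell that accumulates in *brat*-null brains, gives rise to neurons through intermediate neural progenitors (INPs) and their daughters, and transmitter genes are expressed in the neurons at the end of that path.

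The libraries held between 26533845 and 37109356 counts. The overexpressed gene, *insb*, measured between 32.5 and 36.9 TMM-scaled CPM (counts relative to the library size, adjusted for composition by edgeR) in the 0 hr libraries, 369 to 396 CPM at 9 hr and 310 to 359 CPM at 18 hr. Markers of neurons were abundant in all 9 libraries, with 16 pan-neuronal genes summing to between 3844 and 4516 CPM. The 7 neuroblast markers summed to 2267 to 2453 CPM at 0 hr, 1993 to 2052 CPM at 9 hr and 1695 to 2390 CPM at 18 hr, and the 8 markers of glia to between 706 and 944 CPM over all groups. The neuroblast sum pools genes that moved in opposite directions. In it, *tll* was called lower at 9 hr (log2 fold change -1.04, edgeR adjusted p = 0.00268) and at 18 hr (-1.10, adjusted p = 0.00463). *ase* was called higher at 18 hr (1.05, adjusted p = 0.00239). The paper describes Ase as absent from type II neuroblasts and raised during INP commitment. Genes of other tissues differed more between libraries. The 6 fat body markers summed to 23.2 to 152 CPM at 0 hr, 20.5 to 314 CPM at 9 hr and 29.3 to 831 CPM at 18 hr, with the highest value in 18 hr replicate 1, and none of them was at 0 in any library. Markers of muscle (30.3 to 111 CPM), hemocytes (6.82 to 177 CPM) and the ring gland (101 to 278 CPM) also varied, again with none at 0. Replicates 2 and 3 of the 9 hr group nearly match each other. Taking the 8163 genes whose reads in the pair summed to 20 to 6000, these libraries gave a median chi-square of 0.812 per gene. Sampling noise alone would give 0.910 if each mate was counted and 0.455 if each fragment was, and the other 8 replicate pairs gave between 2.03 and 6.26. They were therefore averaged into 1 sample for means and SDs, which leaves n = 2 at 9 hr. The tests count them as separate libraries. With the pair summed into 1 library, 201 genes were called at 9 hr against 0 hr instead of 398, and 49 at 18 hr against 0 hr instead of 90, with none of the 10 genes among them. Leaving out 9 hr replicate 1, 2 or 3 gave 187, 214 and 211 genes at 9 hr, and 62, 50 and 45 at 18 hr. The drop is therefore not particular to the pair.

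Per length of exon, the fast transmitters stood above the amines. At 0 hr the mean level was 22.4 ± 0.789 CPM per kb (SD, n = 3) for *VGlut*, 17.5 ± 4.61 for *Gad1*, 14.0 ± 1.03 for *VAChT* and 11.5 ± 0.804 for *VGAT*. *Vmat*, shared by all amine neurons, followed at 6.73 ± 1.22 CPM per kb and *Trh* at 2.99 ± 0.859. The lowest were *DAT* at 1.51 ± 0.0842, *Tdc2* at 1.15 ± 0.340, *SerT* at 0.917 ± 0.106 and *ple* at 0.700 ± 0.0359 CPM per kb. The libraries of *VGlut* and *Gad1* overlapped, as did those of *Gad1* and *VAChT*, of *DAT* and *Tdc2*, and of *Tdc2* and *SerT*, so that the order within these pairs is not resolved, while the other neighbours in this order were separated at 0 hr. At 9 and 18 hr the order was the same apart from *VGAT*, whose mean passed that of *VAChT* with overlapping libraries.

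**Figure D1:**
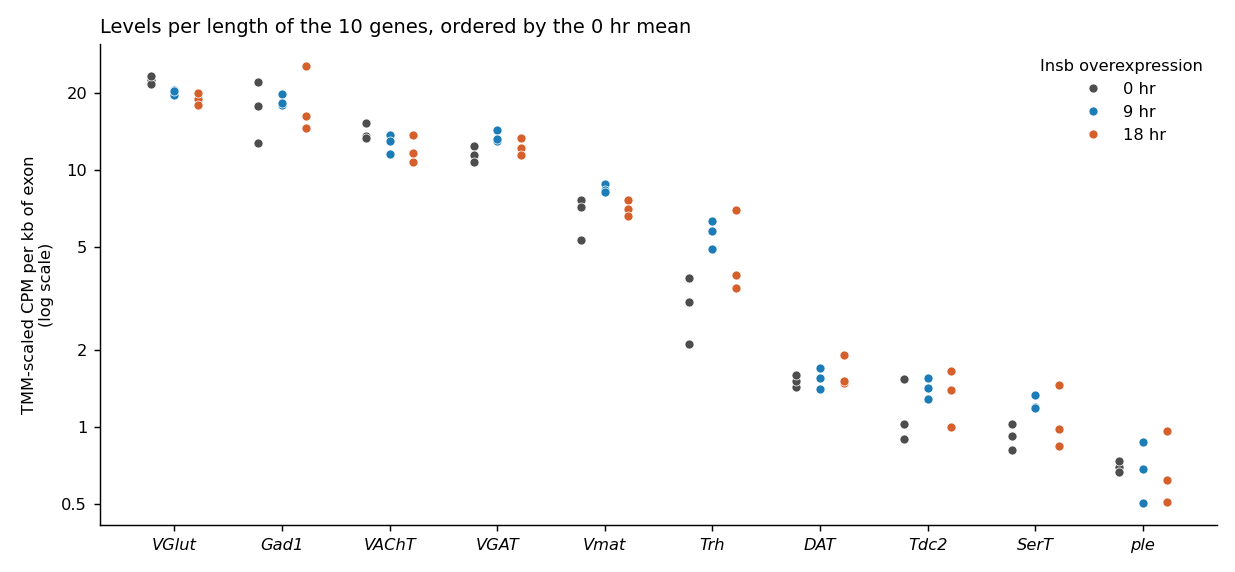
Level of each of the 10 genes per length, in TMM-scaled CPM per kb of exon on a log axis, with a point for each library and colours for 0, 9 and 18 hr of Insb overexpression. The genes of fast transmitters lie above 10 CPM per kb, *Vmat* and *Trh* between 2 and 9, and *DAT*, *Tdc2*, *SerT* and *ple* below 2.

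None of the 10 genes was called between any of the time points, and the estimates were small for all but *Trh*. Genes were called where the quasi-likelihood test of edgeR gave a p under 0.05 after Benjamini-Hochberg adjustment over all 10799 genes and the fold change reached 1.5. At 9 hr against 0 hr, 0 of the 10 were called, where 3.69% of all genes tested were. At an unadjusted p under 0.05 there were 4 of 10 (*Trh*, *Vmat* and *VGAT* with higher values, *VGlut* with lower ones), against 28.6% of all genes, and DESeq2's Wald test called 1, *Trh*, against 4.87% of all genes. At 18 hr against 0 hr, 0 were called against 0.833% of all genes, 1 of 10 (*VGlut*) had an unadjusted p under 0.05 against 17.8%, and DESeq2 called 0 against 1.87%. Between 9 and 18 hr, 0 were called against 0.00926% of all genes, 0 had an unadjusted p under 0.05 against 10.8%, and DESeq2 called 0 against 0.194%. The 9 hr libraries did not overlap with those of 0 hr in 5 of the 10 genes, against 40% of all genes, and the 18 hr libraries did not in 1 of the 10, against 20.9%. These shares lie near the background. The same 0 hr libraries serve in both comparisons. The median log2 fold change of the 10 genes was 0.16 at 9 hr and 0.10 at 18 hr, beside 0.0030 and 0.013 over all genes tested.

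Levels from whole brains do not separate fewer cells of a class from less RNA per cell. What the data do bound is the size of a change in a gene's share of the counts from the whole brain. The intervals come from the fit that counts the near-identical 9 hr replicates 2 and 3 as separate libraries, so they may be too narrow. The 95% interval of the fold change lay within 1.5-fold in either direction for 4 of the 10 genes at 9 hr against 0 hr (*VGlut*, *VAChT*, *VGAT* and *DAT*), and for the same 4 and *Vmat* at 18 hr. For the others a change of 1.5-fold in at least 1 direction was within the interval. An exact permutation test on 1 gene cannot reach a p under 0.1 with 3 libraries on each side, so none is given.

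**Figure D2:**
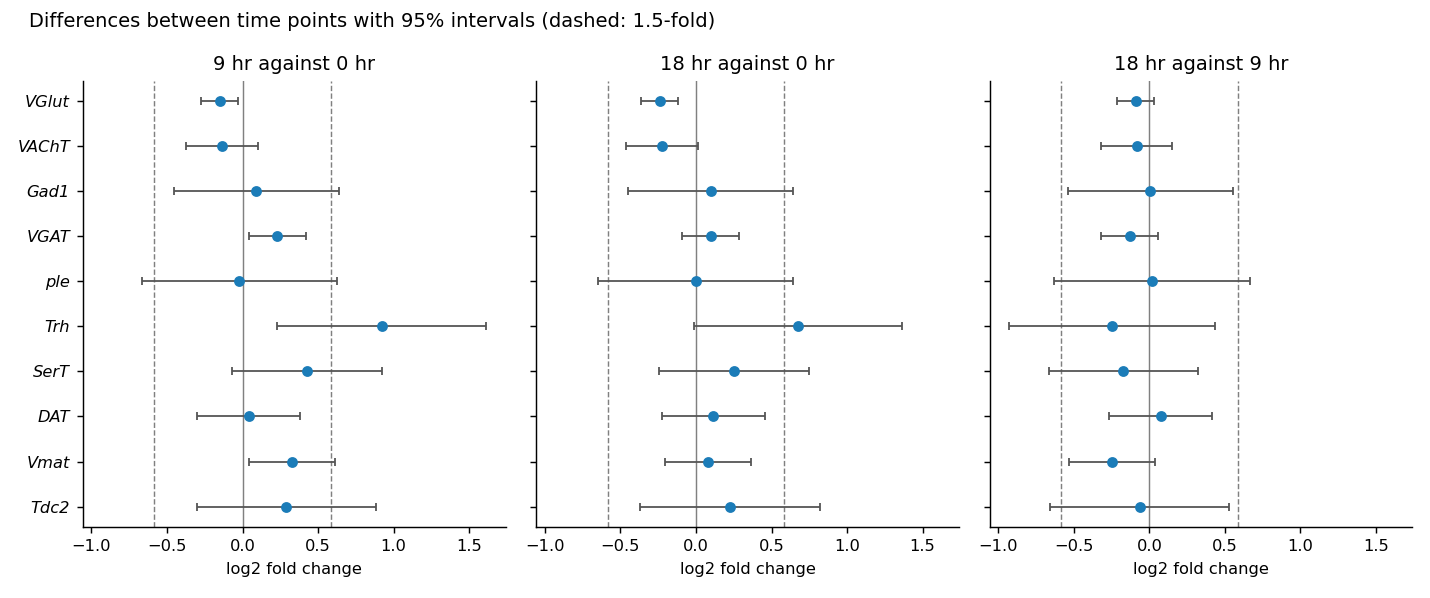
Log2 fold change of each of the 10 genes (points) with its 95% interval (bars) from edgeR's quasi-likelihood fit, for 9 hr against 0 hr, 18 hr against 0 hr and 18 hr against 9 hr, with dashed lines at 1.5-fold. Only *Trh* has an estimate beyond a dashed line, at 0.92 and 0.67, and no gene was called.

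The vesicle transporters of glutamate and acetylcholine had slightly lower values after the shift. *VGlut* lies on chromosome 2L of dm6 from 2400295 to 2410662. It measured 128, 123 and 132 CPM in the 0 hr libraries, 112, 117 and 116 CPM at 9 hr and 108, 114 and 103 CPM at 18 hr. All 6 libraries after the shift were below all 3 of the 0 hr group, and the 9 and 18 hr libraries overlapped. Against 0 hr, the log2 fold change of *VGlut* was -0.15 after 9 hr (95% interval -0.27 to -0.027, edgeR adjusted p = 0.107) and -0.24 after 18 hr (-0.36 to -0.12, adjusted p = 0.0655). It was the most precisely measured of the 10 genes, with at least 3098 counts in each library and a standard error of 0.054 on the log2 scale, and both differences were well under 1.5-fold. With DESeq2's Wald test the adjusted p was 0.0338 at 9 hr and 0.000666 at 18 hr, still without reaching the fold threshold. An exon of the opposite-strand gene CG18641 overlaps *VGlut* by 39 bases, and that gene did not exceed 0.306 CPM in any library.

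*VAChT* lies on chromosome 3R from 18705501 to 18718916, inside the gene for choline acetyltransferase (*ChAT*, listed as Cha), which makes acetylcholine. Both genes start with the same exon and share 606 exon bases on the same strand, 8.5% of those of *VAChT*, so that reads from this stretch could be assigned to either. *VAChT* measured 96.0, 94.5 and 108 CPM at 0 hr, 81.7, 97.4 and 92.1 CPM at 9 hr and 76.2, 97.0 and 82.5 CPM at 18 hr. Its groups overlapped, with 1 library of 9 hr and 1 of 18 hr within the 0 hr range. For *VAChT* the log2 fold change reached -0.14 after 9 hr (95% interval -0.38 to 0.10, edgeR adjusted p = 0.421) and -0.22 at 18 hr (-0.46 to 0.014, adjusted p = 0.314). *ChAT* itself stayed between 27.7 and 33.9 CPM, with log2 fold changes of 0.026 (edgeR adjusted p = 0.838) and -0.15 (adjusted p = 0.281). The level of *VGlut* per length was 1.46 to 1.76 times that of *VAChT* in each of the 9 libraries, and the 3 groups overlapped in this ratio.

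Neither of the GABA genes was called. *Gad1*, the enzyme that makes GABA from glutamate, lies on chromosome 3L from 4074077 to 4088744. It measured 80.9, 47.0 and 65.4 CPM at 0 hr, 72.6, 66.2 and 67.4 CPM at 9 hr and 93.7, 59.9 and 53.5 CPM at 18 hr. The 0 hr and 18 hr libraries each spread over nearly the whole range, and the 9 hr libraries lay inside it. Its log2 fold changes were 0.092 at 9 hr (95% interval -0.45 to 0.64, edgeR adjusted p = 0.838) and 0.098 at 18 hr (-0.45 to 0.64, adjusted p = 0.900). *VGAT*, the vesicle transporter of GABA, lies on chromosome 2R from 14198478 to 14201249. Neither *Gad1* nor *VGAT* shares exon bases with another annotated gene. It measured 33.4, 30.8 and 29.1 CPM at 0 hr, 38.7, 34.9 and 35.7 CPM at 9 hr and 36.1, 32.8 and 30.9 CPM at 18 hr. All 9 hr libraries were above all 0 hr libraries by a small margin, and those of 18 hr overlapped with both. Its log2 fold change came to 0.23 at 9 hr (95% interval 0.041 to 0.42, edgeR adjusted p = 0.108) and 0.099 at 18 hr (-0.090 to 0.29, adjusted p = 0.612).

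Serotonin genes had the largest estimate of the set. *Trh*, which carries out the first step of serotonin synthesis in neurons, lies on chromosome 3L from 1190384 to 1193173. It measured 8.31, 4.57 and 6.71 CPM at 0 hr, 13.9, 12.6 and 10.7 CPM at 9 hr and 15.2, 7.58 and 8.51 CPM at 18 hr. Every 9 hr library was above every 0 hr library, while at 18 hr replicate 1 was the highest of all libraries and replicate 2 fell within the 0 hr range. Its mean was 6.53 ± 1.88 CPM (SD, n = 3) in the 0 hr group, 12.8 ± 1.57 CPM (SD, n = 2) after 9 hr and 10.4 ± 4.16 CPM (SD, n = 3) after 18 hr. The fold change of 1.90 at 9 hr (95% interval 1.17 to 3.06, log2 0.92, standard error 0.302) missed the threshold with an edgeR adjusted p of 0.0857. At 18 hr it was 1.60 (0.990 to 2.58, log2 0.67, adjusted p = 0.293), and between 9 and 18 hr 0.842 (0.524 to 1.35, adjusted p = 0.788).

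The call of *Trh* at 9 hr depended on the fit. Of 17 alternative fits, 4 called it, among them DESeq2's Wald test (log2 fold change 0.92, adjusted p = 0.0252), the 0 and 9 hr libraries fitted alone (edgeR adjusted p = 0.0461) and the fit without 18 hr replicate 1 (adjusted p = 0.0314). With 9 hr replicates 2 and 3 summed as 1 library the adjusted p was 0.152, and the highest value was 0.231, without 9 hr replicate 1. The log2 fold change stayed between 0.72 and 1.13 in all of these fits. At 18 hr the estimate rested largely on replicate 1, since without it the log2 fold change was 0.30 (edgeR adjusted p = 0.534). That library also had the highest summed fat body, muscle and hemocyte markers. Among the 9 hr libraries, *Trh* was highest in replicate 1, whose summed fat body markers of 20.5 CPM were the lowest of all libraries, against 308 and 314 CPM in replicates 2 and 3. Its muscle sum (36.6 CPM) was also the lowest of the 9 hr group. Its hemocyte sum (42.4 CPM, against 33.8 and 34.8) and ring gland sum (194 CPM, against 147 and 145) were the highest of that group. The part of these tissues in the level of *Trh* was not tested. The opposite-strand gene CG13912 shares 89 exon bases with *Trh* and did not exceed 0.262 CPM.

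*SerT*, the transporter that takes serotonin back up, lies on chromosome 2R from 24404595 to 24411074. It measured 3.81, 3.01 and 3.42 CPM at 0 hr, 4.46, 4.39 and 4.94 CPM at 9 hr and 5.43, 3.15 and 3.64 CPM at 18 hr, from 89 to 195 counts. The 9 hr libraries were all above those of 0 hr, and at 18 hr replicate 1 alone was. Its log2 fold change was 0.43 at 9 hr (95% interval -0.069 to 0.92, edgeR adjusted p = 0.235) and 0.25 at 18 hr (-0.24 to 0.75, adjusted p = 0.622). Without 18 hr replicate 1 the 18 hr value was -0.0094. The level of *Trh* per length was 2.59 to 3.73 times that of *SerT* in the 0 hr libraries, 3.70 to 5.31 times at 9 hr and 3.99 to 4.78 times at 18 hr. The 18 hr libraries were all above those of 0 hr in this ratio, and the 9 hr libraries overlapped with them.

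*Vmat*, which loads all monoamines into vesicles, lies on chromosome 2R from 13513132 to 13534251. It measured 62.2, 43.4 and 58.6 CPM at 0 hr, 71.9, 67.7 and 66.8 CPM at 9 hr and 62.3, 57.3 and 53.8 CPM at 18 hr. The 9 hr libraries were the 3 highest of the 9, above every library of 0 and of 18 hr. For *Vmat* the log2 fold change came to 0.33 at 9 hr (95% interval 0.044 to 0.61, edgeR adjusted p = 0.124), 0.079 at 18 hr (-0.21 to 0.36, adjusted p = 0.825) and -0.25 between 9 and 18 hr (-0.54 to 0.035, adjusted p = 0.511). *Vmat* was the 1 gene of the 10 whose 9 and 18 hr libraries did not overlap, against 18.5% of all genes. In the annotation, 26.2% of the exon bases of *Vmat* also lie in exons of the opposite-strand gene CG13330. Whether strand was used in counting is not stated, so that a part of these counts cannot be assigned with certainty.

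Dopamine genes were low, and neither was called. *ple*, the tyrosine hydroxylase that limits dopamine synthesis, lies on chromosome 3L from 6713356 to 6719525. It measured 2.64, 2.54 and 2.81 CPM at 0 hr, 1.92, 3.34 and 2.62 CPM at 9 hr and 3.68, 1.95 and 2.36 CPM at 18 hr, from between 65 and 132 counts. The 0 hr libraries lay close together, inside the range of the other groups. Its log2 fold change came to -0.021 at 9 hr (95% interval -0.67 to 0.63, edgeR adjusted p = 0.973) and -0.0020 at 18 hr (-0.65 to 0.65, adjusted p = 0.999). A difference of 1.5-fold in *ple* was not detectable with this spread. *DAT*, the dopamine transporter, lies on chromosome 2R from 16558567 to 16565238 and measured 4.33, 4.57 and 4.84 CPM at 0 hr, 4.69, 4.28 and 5.17 CPM at 9 hr and 4.51, 4.58 and 5.79 CPM at 18 hr. The groups overlapped throughout, with log2 fold changes of 0.040 (95% interval -0.30 to 0.38, edgeR adjusted p = 0.892) and 0.11 (-0.23 to 0.46, adjusted p = 0.779). 

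*Tdc2*, the neuronal enzyme that makes tyramine, the precursor of octopamine, lies on chromosome 2R from 6684745 to 6689974. It measured 3.55, 2.07 and 2.37 CPM at 0 hr, 3.55, 2.96 and 3.26 CPM at 9 hr and 3.81, 2.31 and 3.22 CPM at 18 hr, from between 61 and 137 counts. Replicate 1 was the highest library at each time point and the groups overlapped. Its log2 fold change was 0.29 at 9 hr (95% interval -0.30 to 0.89, edgeR adjusted p = 0.502) and 0.23 at 18 hr (-0.37 to 0.82, adjusted p = 0.743).

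**Figure D3:**
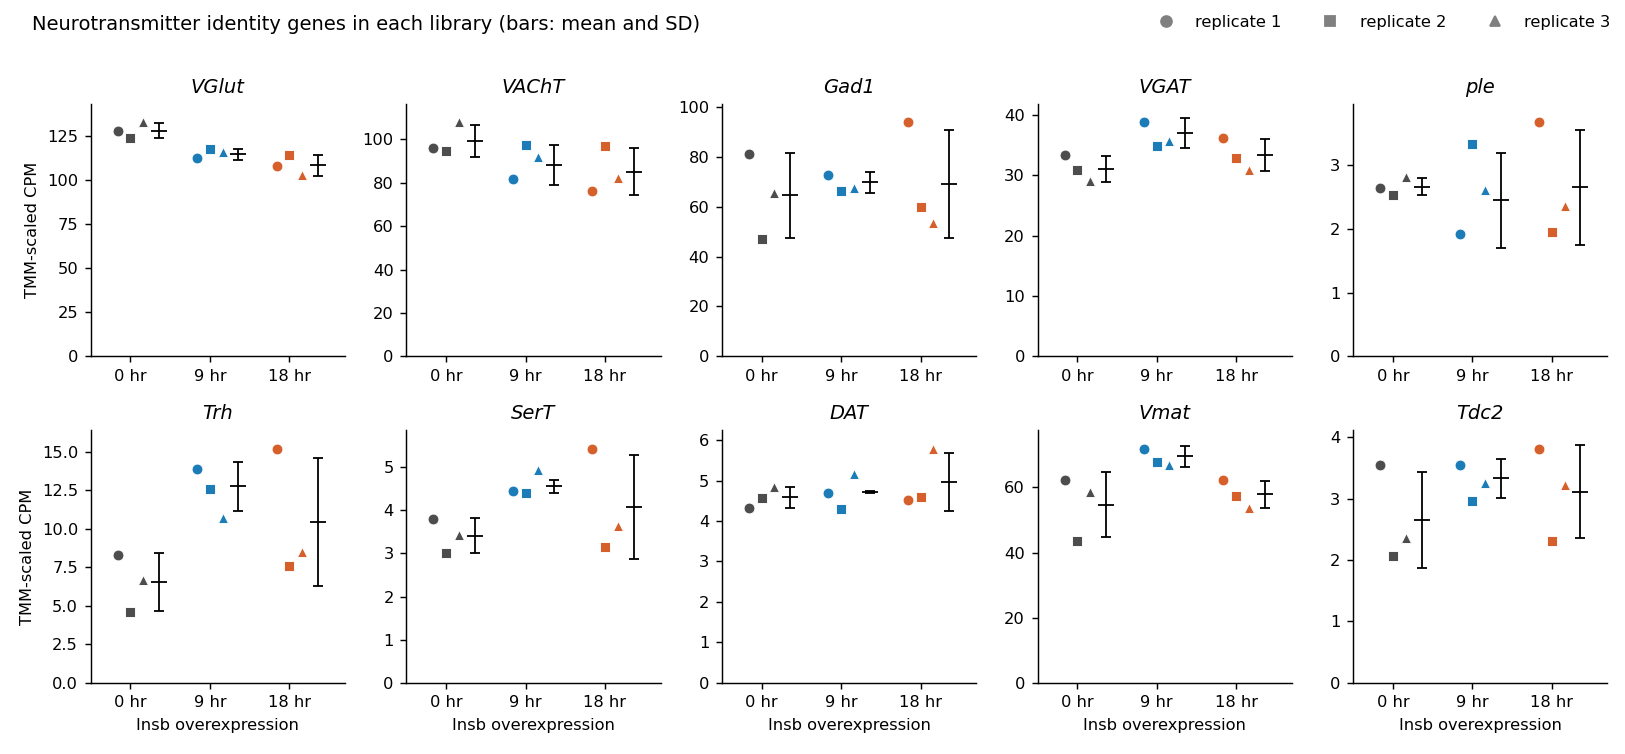
TMM-scaled CPM of the 10 genes in each of the 9 libraries, with symbols for replicates 1 to 3, colours for the time points and black bars for the mean and SD (n = 3, or n = 2 at 9 hr, where replicates 2 and 3 were averaged). *VGlut* at 9 and 18 hr lies below its 0 hr libraries, *Trh*, *SerT*, *VGAT* and *Vmat* at 9 hr lie above theirs, and 18 hr replicate 1 is the highest library for 5 of the 10 genes.

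The spread among replicates was shared by several of the genes. Within its group, 18 hr replicate 1 had the highest CPM for 7 of the 10 genes (*Gad1*, *VGAT*, *ple*, *Trh*, *SerT*, *Vmat* and *Tdc2*) and the lowest for *VAChT* and *DAT*. At 0 hr, replicate 2 had the lowest CPM for 8 of the 10, all but *VGAT* and *DAT*, and was the lowest of all 9 libraries for *Gad1*, *Trh*, *SerT*, *Vmat* and *Tdc2*. The range over all libraries was widest for *Trh*, at 3.33-fold from the lowest to the highest, and narrowest for *VGlut*, at 1.29-fold. Pairs with 18 hr replicate 1 had the highest median chi-square per gene of all replicate pairs (6.26 and 4.15). The neuropeptide genes *NPF*, *sNPF*, *Dh44*, *Proc* and *Tk* were also highest in 18 hr replicate 1 and lowest in 0 hr replicate 2. *Lk*, *AstA*, *CCAP*, *Pdf*, *Hug* and *Nplp1* were highest in 18 hr replicate 1 but lowest in 0 hr replicate 3. The share of all genes with these orders within groups was not computed. These libraries also differed in markers of other tissues: 0 hr replicate 2 had the highest ring gland sum of its group (278 CPM) and 18 hr replicate 1 the highest fat body sum (831 CPM). Sums of brain markers differed in the same libraries. In 0 hr replicate 2 the pan-neuronal (4047 CPM), neuroblast (2267 CPM) and glia (765 CPM) sums were the lowest of its group. In 18 hr replicate 1 the pan-neuronal (3844 CPM) and neuroblast (1695 CPM) sums were the lowest of all 9 libraries. Its glia sum (944 CPM) was the highest, nearly level with that of 0 hr replicate 1 (943 CPM). The part of these cells and tissues in the levels of the 10 genes was not tested.

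**Figure D4:**
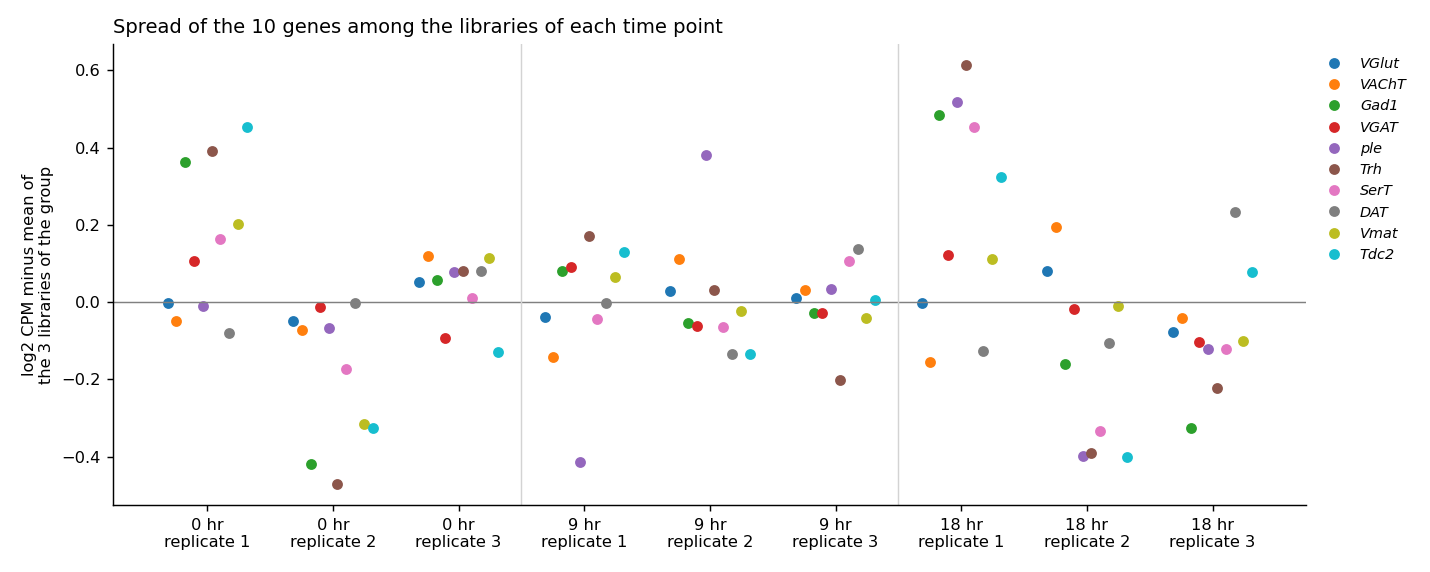
Log2 CPM of each of the 10 genes in each library, minus the mean of the 3 libraries of its time point. In 0 hr replicate 2 most genes lie below 0, and in 18 hr replicate 1 *Gad1*, *ple*, *Trh*, *SerT* and *Tdc2* lie above it while *VAChT* and *DAT* lie below.

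Across the 9 libraries, the profile of *Trh* was most like that of *SerT* among the other 9 genes (Pearson's r = 0.90 of log2 CPM), and *VGlut* was most like *VAChT* (r = 0.83). *VAChT* ran opposite to *Tdc2* (r = -0.68) and *Trh* (r = -0.60). Over all 9190 other genes that averaged 1 CPM or more and were detected in every library, the closest profile was that of CG3009 for *Trh* (r = 0.99), *Clic* for *VGlut* (0.97), *spoon* for *VAChT* (0.98), *Ald* for *Gad1* (0.99) and *bol* for *Vmat* (0.98). The values for the 10 genes ran from 0.95 to 0.99. These are descriptions of 9 libraries that share 3 time points and hold a near-identical pair, and with so many genes compared over 9 points a close match exists for nearly any profile.

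Among 17 other genes that handle these transmitters or histamine (*Hdc* and *CarT*), *Tbh* rose and *Ace* fell at 9 hr, and none was called at 18 hr. *Tbh*, the enzyme that turns tyramine into octopamine and so acts after Tdc2, measured 10.5, 7.01 and 8.32 CPM at 0 hr, 16.8, 13.4 and 13.7 CPM at 9 hr and 12.0, 10.8 and 9.65 CPM at 18 hr. The 9 hr libraries were the 3 highest of the 9. The 9 hr difference was 0.77 on the log2 scale (standard error 0.168, edgeR adjusted p = 0.0257) and that at 18 hr 0.33 (adjusted p = 0.359). *Tbh* lost its call in 5 of the fits that left out 1 library, those without 0 hr replicates 2 or 3 or without any of the 9 hr replicates (edgeR adjusted p up to 0.0992, without 9 hr replicate 1), and with 9 hr replicates 2 and 3 summed (adjusted p = 0.0642). *Ace*, the acetylcholinesterase that breaks down acetylcholine, measured 191, 281 and 221 CPM at 0 hr, 154, 158 and 149 CPM at 9 hr and 146, 189 and 179 CPM at 18 hr. All 9 hr libraries were below those of 0 hr, and 0 hr replicate 2 was far above the rest. For *Ace* the log2 fold change came to -0.59 at 9 hr (edgeR adjusted p = 0.0353) and -0.43 at 18 hr (adjusted p = 0.172). *Ace* kept its call in 8 of 17 alternative fits, and without 0 hr replicate 2 the 9 hr value was -0.42 (adjusted p = 0.0824). It was also not called without 0 hr replicate 3, without 18 hr replicate 3 or without any of the 9 hr replicates (adjusted p up to 0.113), nor with 9 hr replicates 2 and 3 summed (adjusted p = 0.103), and upper-quartile scaling brought it under the fold threshold at -0.57.

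*Ddc*, the decarboxylase that completes both dopamine and serotonin, had lower values at 9 hr but did not pass the test in edgeR. It measured 11.7, 10.6 and 8.77 CPM at 0 hr, 6.55, 6.56 and 7.0 CPM at 9 hr and 10.4, 6.59 and 6.71 CPM at 18 hr. The 9 hr libraries all lay below those of 0 hr, and its log2 fold change was -0.63 (edgeR adjusted p = 0.0740). It was called in 3 of 17 alternative fits, DESeq2's among them (the lowest adjusted p over the 17 was 0.0202). The acetyltransferase gene Dat, also 1 of the 17 genes, had an edgeR adjusted p of 0.0383 at 9 hr. Its log2 fold change of -0.42 was short of the fold threshold, and its adjusted p stayed under 0.05 in 6 of 17 alternative fits. *Hn*, which makes the tyrosine used for dopamine, was at 0 counts in 4 libraries and at 75 in 18 hr replicate 1, the library with the highest fat body sum. Over the 17 genes the median log2 fold change was -0.11 at 9 hr and -0.15 at 18 hr. At 9 hr edgeR called *Ace* and *Tbh* of the 17, against 3.69% of all genes. At an unadjusted p under 0.05 in edgeR there were 6 of the 17, against 28.6%, and DESeq2 called 3 (*Ace*, *Ddc* and *Tbh*), against 4.87%. At 18 hr edgeR called 0 of the 17, against 0.833% of all genes. An unadjusted p under 0.05 was reached by 5, against 17.8%, and DESeq2 called 0, against 1.87%.

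No receptor of a transmitter was called. Of 50 receptor genes listed, 48 could be tested (*clumsy* and *ort* were too low), and edgeR called 0 at either 9 or 18 hr against 0 hr or between 9 and 18 hr. Over all genes the shares called in these comparisons were 3.69%, 0.833% and 0.00926%. At an unadjusted p under 0.05 there were 5, 4 and 4 of the 48, against 28.6%, 17.8% and 10.8% of all genes. DESeq2 called 0 in each, against 4.87%, 1.87% and 0.194%. The median log2 fold change of the 48 was 0.071 at 9 hr, where 32 were above 0, and -0.061 at 18 hr, where 15 were. *Lcch3*, a GABA receptor subunit, had an edgeR adjusted p of 0.0415 at 9 hr with a log2 fold change of -0.42, and *nAChRbeta2*, a nicotinic subunit, had one of 0.0466 with -0.24, both short of the fold threshold. Of the exon bases of *Lcch3*, 24.0% lie in the opposite-strand gene Ranbp16. Likewise 0 of 23 neuropeptide and peptide-processing genes were called, with 3, 3 and 0 of them at an unadjusted p under 0.05 in the 3 comparisons, against the same background, and 0 by DESeq2, and their median was 0.21 at 9 hr and 0.012 at 18 hr.

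General genes of neurons gave the frame for these levels. Of 16 pan-neuronal genes, edgeR called 2 at 9 hr, both lower, beside a share of 3.69% over all genes. DESeq2 called the same 2, *Snap25* and *Rbp9*, beside 4.87%. In edgeR 6 of the 16 had an unadjusted p under 0.05, against 28.6% of all genes. At 18 hr edgeR called 0, beside 0.833%, and 3 had an unadjusted p under 0.05 against 17.8%. DESeq2 called 1 at 18 hr, *nrv3*, beside 1.87%. *Rbp9*, an RNA-binding protein of neurons, fell by 1.66 on the log2 scale at 9 hr (edgeR adjusted p = 0.0115, and 0.0521 without 9 hr replicate 1). *Snap25*, a protein of vesicle fusion, fell by 0.61 (adjusted p = 0.0184, and up to 0.0784 without 9 hr replicate 1), and was also not called without either other 9 hr replicate or without 0 hr replicates 2 or 3, nor with 9 hr replicates 2 and 3 summed (adjusted p = 0.0572). *Syt1*, the calcium sensor of vesicle release, had higher values at 9 hr, with 180, 162 and 179 CPM at 0 hr against 214, 215 and 229 CPM. These groups did not overlap, and its log2 fold change of 0.34 had an edgeR adjusted p of 0.0416 but was short of the fold threshold. *elav*, the standard neuronal marker, stayed between 423 and 703 CPM. The median log2 fold change of the 16 was 0.0075 at 9 hr and -0.036 at 18 hr.

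**Figure D5:**
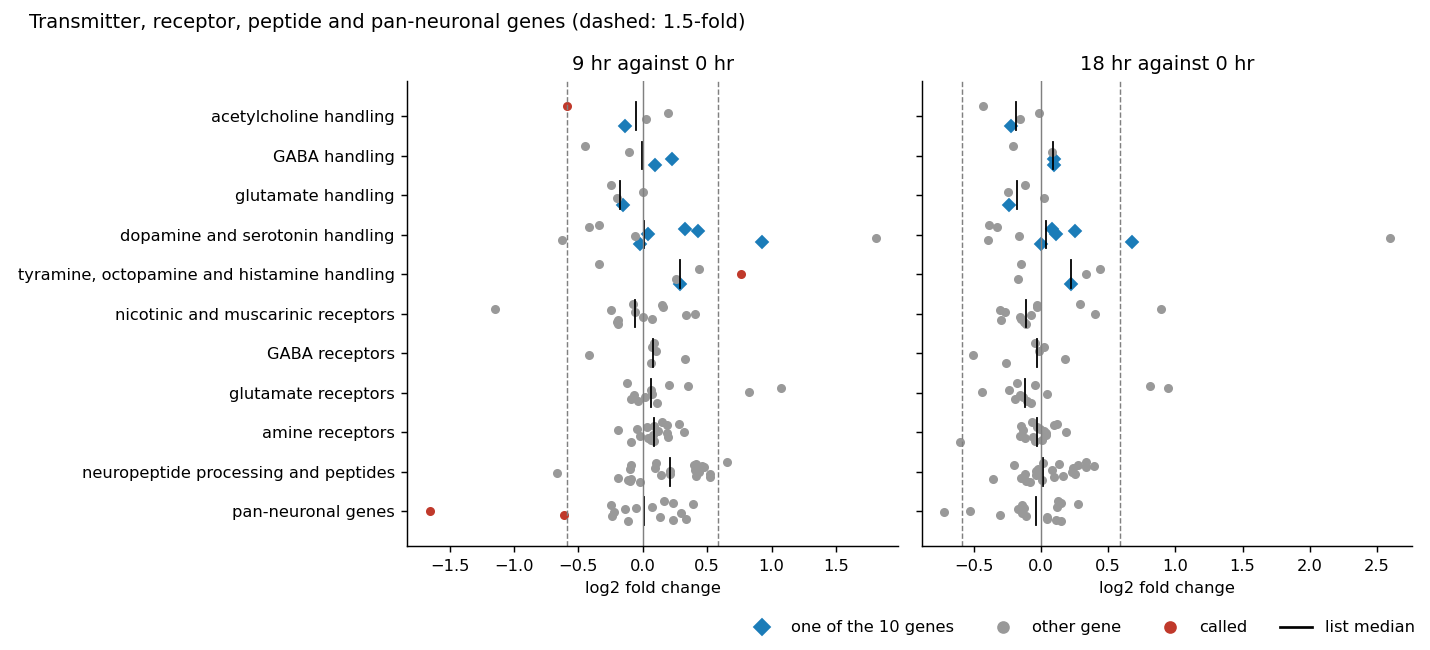
Log2 fold changes of single genes in lists of transmitter, receptor, peptide and pan-neuronal genes for 9 hr and 18 hr against 0 hr, with diamonds for the 10 identity genes, grey points for other genes, red points for called genes, a black line for the median of each list and dashed lines at 1.5-fold. *Tbh*, *Ace*, *Snap25* and *Rbp9* are the genes called, all at 9 hr, and the list medians lie between -0.19 and 0.29.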

How the data were processed

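Poly-A RNA of pooled whole brains was sequenced in 9 libraries, 3 for each time point, grouped by their labels. The deposited table holds raw counts per gene and library. The authors processed reads to dm6, and the submitters' processing notes name FastQC 0.11.3, HISAT2 2.1.0, StringTie 1.3.4 and DESeq2 1.20.0. Per the study's methods, HISAT2 aligned the reads and StringTie quantified them per gene. The annotation release and strand setting are not given in the sources used here. Library totals ran from 26533845 to 37109356, and low genes such as *Tdc2* rest on 61 counts or more, which limits their precision.

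Counts were fitted with edgeR 4.0.16 (R 4.3.3, limma 3.58.1) by the quasi-likelihood test, all 9 libraries in 1 model with TMM scaling and edgeR's low-count filter, leaving 10799 genes. Calls needed a Benjamini-Hochberg adjusted p under 0.05 over all of them and a fold of 1.5. The code was tested on simulated data. CPM per kb divides by the union of exons in an Ensembl annotation of dm6. Of the row names, 11086 matched current symbols, 3319 older ones and 155 none. Alternatives were DESeq2 1.42.0, other scalings and filters, the compared libraries alone, a replicate block, each library left out, and 9 hr replicates 2 and 3 summed. The 10 genes, the lists and the rule for named genes (all 10, list genes where a list is reported, and the closest profile of each) were chosen with earlier results of these data known. The methods describe the replicates as biological and independently collected. The main fit counts 9 hr replicates 2 and 3 as separate libraries although their counts nearly match.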

Additional observations from a re-analysis of the deposited data

How the results depend on the processing

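Over 17 alternatives, 480 of 510 values for the 10 genes in the 3 comparisons kept their direction and side of the threshold. One gene of the 10, *Trh*, was called at 9 hr against 0 hr (1 call against 0) by DESeq2's Wald test, with the compared libraries alone and with the replicate block, and leaving out single libraries gave 0 to 1 calls. The log2 fold change of *Trh* was 0.96 with the block (edgeR adjusted p = 0.0428). The block is no pairing by design: same-numbered libraries correlated between -0.33 and 0.48, above 0.1 in 1 of 9 pairs, and not every library correlated best with its own number. It called 95 lower and 200 higher genes at 9 hr, where the fit without it called 129 and 269, and changed no other call among the 10. *Ace* was not called with the block, at -0.57.

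All 26 reversals concerned small log2 fold changes that were called in no fit. *Gad1* between 9 and 18 hr was -0.0044 with upper-quartile scaling, -0.036 with the replicate block and -0.013 with 9 hr replicates 2 and 3 summed. *ple* with upper-quartile scaling was 0.0024 at 9 hr and 0.013 at 18 hr, where a minimum of 10 counts gave 0.0071. Leaving out single libraries, *Gad1* ran from -0.091 to 0.29 at 9 hr, -0.19 to 0.29 at 18 hr and -0.28 to 0.16 between 9 and 18 hr, and *ple* from -0.23 to 0.16, -0.31 to 0.18 and -0.29 to 0.23. *DAT* ran from -0.030 to 0.10, -0.010 to 0.18 and -0.050 to 0.15. *SerT* ran from -0.0094 to 0.41 and *Vmat* from -0.062 to 0.18 at 18 hr, and *Tdc2* from -0.24 to 0.11 between 9 and 18 hr. The cause was not tested. Over all genes, calls ranged from 187 (without 9 hr replicate 1) to 526 (DESeq2) around 398 at 9 hr, from 25 (compared libraries alone) to 202 (DESeq2) around 90 at 18 hr, and from 0 to 21 around 1 between 9 and 18 hr. *ple*, *Tdc2*, *SerT* and *DAT* had under 200 counts in every library, but standard errors did not follow depth, since *DAT* had 0.149 at 9 hr and *Gad1*, with at least 1389 counts, 0.238.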
